A study of Mus musculus with 4 samples.

Results

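The 3 genes of the estrogen-related receptor family (Esrra, Esrrb and Esrrg) and the 5 genes of the Atp13a family (Atp13a1 to Atp13a5) were followed through the cell types of the adult mouse stria vascularis (SV). They were taken by symbol from the gene lists of all 4 libraries, and each of the 8 symbols was found once in every library, among 27998 genes listed for cells and 48816 for nuclei. The tissue came from CBA/J mice at P30, pooled from several animals in each capture, and the labels give no treatment or engineered allele for any sample. There were 3 single-cell RNA-Seq (scRNA-Seq) captures and 1 single-nucleus RNA-Seq (snRNA-Seq) capture, made on the 10x Genomics platform. The questions were which family member each SV cell type used, and whether Esrrb and Atp13a5 varied together within marginal cells. The study had itself picked Esrrb, as a regulator, and Atp13a5, as one of its targets, as marginal cell genes on these samples, so their marginal levels are given here as a description. They stayed in the fit over all genes, and where that fit called them in a comparison with marginal cells, the call is named as such and nothing is read from it.

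The SV lines the lateral wall of the cochlea and keeps the endolymph rich in potassium. Marginal cells face the endolymph and secrete potassium, intermediate cells are pigmented cells that carry the Kcnj10 channel, basal cells seal the tissue with tight junctions, and spindle and root cells border it. Estrogen-related receptors (ERRs) are orphan nuclear receptors that resemble the estrogen receptor but do not bind estrogen. They bind a short DNA element as monomers or dimers and, with coactivators such as the product of Ppargc1a, drive genes of mitochondrial oxidation. Esrrb is also a factor of pluripotent stem cells, and its loss is a known cause of deafness. The Atp13a genes encode membrane-spanning pumps of the P-type ATPase superfamily. Atp13a1 acts in the endoplasmic reticulum, Atp13a2 exports polyamines from lysosomes, Atp13a3 takes part in polyamine uptake, and the roles of Atp13a4 and Atp13a5 are less well known.

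Atp13a3, Atp13a4 and Atp13a5 lie on chromosome 16, all on the minus strand (GRCm38, the mm10 build): Atp13a5 at chr16:29231851-29378732, Atp13a4 next to it at chr16:29395853-29544864 and Atp13a3 at chr16:30312423-30405975. Esrrb spans chr12:86361117-86521628 on the plus strand. Esrrg is much longer, 606 kb at chr1:187608791-188214885, and Esrra is the shortest, 10.8 kb at chr19:6910977-6921813. Atp13a1 lies at chr8:69791163-69807749 and Atp13a2 at chr4:140986873-141007330, both on the plus strand. Esrrg overlaps 4 annotated genes, Gm36388, Gm37929 and 9330162B11Rik on the opposite strand and Gm38315 on its own, and whether the counting used strand is not given in the sources used here. Esrra overlaps Trmt112 on the opposite strand and Mir6990 on its own, and Atp13a1 overlaps Zfp866 on the opposite strand, and Atp13a5 overlaps a processed pseudogene, Gm15752, on its own strand.

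The promoters of the regulator, of its named target and of that target's neighbour are shown. A binding motif was part of the study's link between Esrrb and Atp13a5. The rest was co-expression and in situ hybridization, which found Atp13a5 transcripts in all Esrrb-positive nuclei it counted. Each window runs from 250 bases before to 50 bases after a transcription start in RefSeq (GRCm38.p6), 5′ to 3′ on the strand of the gene, with any ERR core motif in capitals. The motif searched was AAGGTCA on both strands, which reads TGACCTT on the other strand. The windows are Esrrb at chr12:86360867-86361166 (plus), Atp13a5 at chr16:29378683-29378982 (minus) and Atp13a4 at chr16:29544815-29545114 (minus).
Esrrb: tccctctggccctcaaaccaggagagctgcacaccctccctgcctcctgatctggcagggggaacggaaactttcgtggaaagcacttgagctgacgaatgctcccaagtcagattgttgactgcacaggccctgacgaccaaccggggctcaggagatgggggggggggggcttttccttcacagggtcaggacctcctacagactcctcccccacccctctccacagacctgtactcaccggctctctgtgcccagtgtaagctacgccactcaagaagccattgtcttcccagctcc
Atp13a5: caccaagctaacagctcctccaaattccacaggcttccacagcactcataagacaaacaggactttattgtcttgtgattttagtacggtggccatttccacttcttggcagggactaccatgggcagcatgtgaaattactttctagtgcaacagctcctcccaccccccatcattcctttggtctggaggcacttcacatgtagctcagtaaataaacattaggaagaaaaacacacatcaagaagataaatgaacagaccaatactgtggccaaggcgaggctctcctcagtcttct
Atp13a4: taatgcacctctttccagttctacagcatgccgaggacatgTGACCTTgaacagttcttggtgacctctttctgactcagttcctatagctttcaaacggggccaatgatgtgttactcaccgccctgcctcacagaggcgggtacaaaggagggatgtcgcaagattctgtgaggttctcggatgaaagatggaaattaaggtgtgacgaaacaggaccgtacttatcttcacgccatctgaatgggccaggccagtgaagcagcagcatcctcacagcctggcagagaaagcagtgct
Of the 12 windows that matched a member, this Atp13a4 window alone held the core, at -209 from the start, and there it also matched the extended form TNAAGGTCA. Among all mouse promoter windows of this length, 4.72% held the core and 1.28% the extended form, so a single match among 12 windows is a description of these letters and not of binding. The absence of a match in the Atp13a5 window says only that these letters do not lie within its 300 bases. The Atp13a5 window held 2 CpG dinucleotides and each of the 2 Esrrb windows held 7, against 17 for Atp13a1, 25 for Esrra and 28 for Atp13a2, with a median of 7 over all windows.

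After removal of barcodes with under 200 genes and of predicted doublets, 377, 1315 and 1463 cells and 9785 nuclei remained, from libraries of 2811309, 8113494 and 8340882 UMIs for cells and 22332501 UMIs for nuclei. Pairs of libraries shared between 0 and 32 barcode sequences. Clusters were named from marker genes without the 8 members in the clustering, and names below stand for marginal-like clusters and so on. The marginal clusters held 19, 71 and 45 cells and 2600 nuclei, and their 8 marginal markers, such as Kcne1 and Lrp2, summed to between 15607 and 16773 CPM (UMIs of a gene scaled to a library total of 1e+06) in cells and 15978 CPM in nuclei. Marginal cells also carried 5760 to 9575 CPM of the 8 intermediate markers, against 20406 to 28535 CPM in intermediate cells, and other types carried marginal markers, 2230 to 3265 CPM in intermediate and basal cells. Clusters with no name held 191, 694 and 805 cells and 3819 nuclei, with mitochondrial shares of 49.3% to 55.5% in cells and 45.9% in nuclei. The spindle/root cluster held only 4 cells in capture 1, so the levels and tests of that type rest on captures 2 and 3, while its pooled family shares include those 4 cells. Intervals on a single library, and those on shares pooled over captures, are exact 95% Poisson or binomial intervals. They cover counting error only and not the spread between captures.

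Esrrb was by far the most abundant ERR transcript in marginal cells. Its level there was 451, 481 and 478 CPM in the 3 cell captures, a mean of 470 ± 17.1 CPM (SD, n = 3). Intermediate cells had 20.5, 20.6 and 10.7 CPM, basal cells 56.8, 31.4 and 65.4 CPM, and spindle/root cells 54.9 and 63.4 CPM. Every marginal capture lay above every other sum, without overlap, while basal and spindle/root cells overlapped. The marginal level was 21.9, 23.4 and 44.8 times the intermediate level and 7.93, 15.3 and 7.32 times the basal level of the same capture.

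In nuclei Esrrb was at 1281 CPM in marginal nuclei (1248 to 1315), 48.8 CPM in intermediate nuclei and 327 CPM in basal nuclei (294 to 362). The order marginal, basal, spindle/root, intermediate was that of the cell means for the first and the last place. At least 1 Esrrb UMI was seen in 94.7%, 91.5% and 93.3% of marginal cells and in 75.3% of marginal nuclei. Erythroid cells, which are not expected to express it, had Esrrb in 0 of 14 cells of capture 2, where the exact interval reaches 23.2%, and in 4.65% of cells of capture 3, at a median of 10054.5 and 10230 UMIs, close to the 11435 and 10713 UMIs of marginal cells there. With barcodes thinned to 1000 UMIs for cells and 500 for nuclei, the share in marginal barcodes was 42.1%, 35.2%, 44.4% and 42.5%, against 0% to 2.05% in erythroid barcodes. No barcode was too shallow to be thinned.

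**Figure D1:**
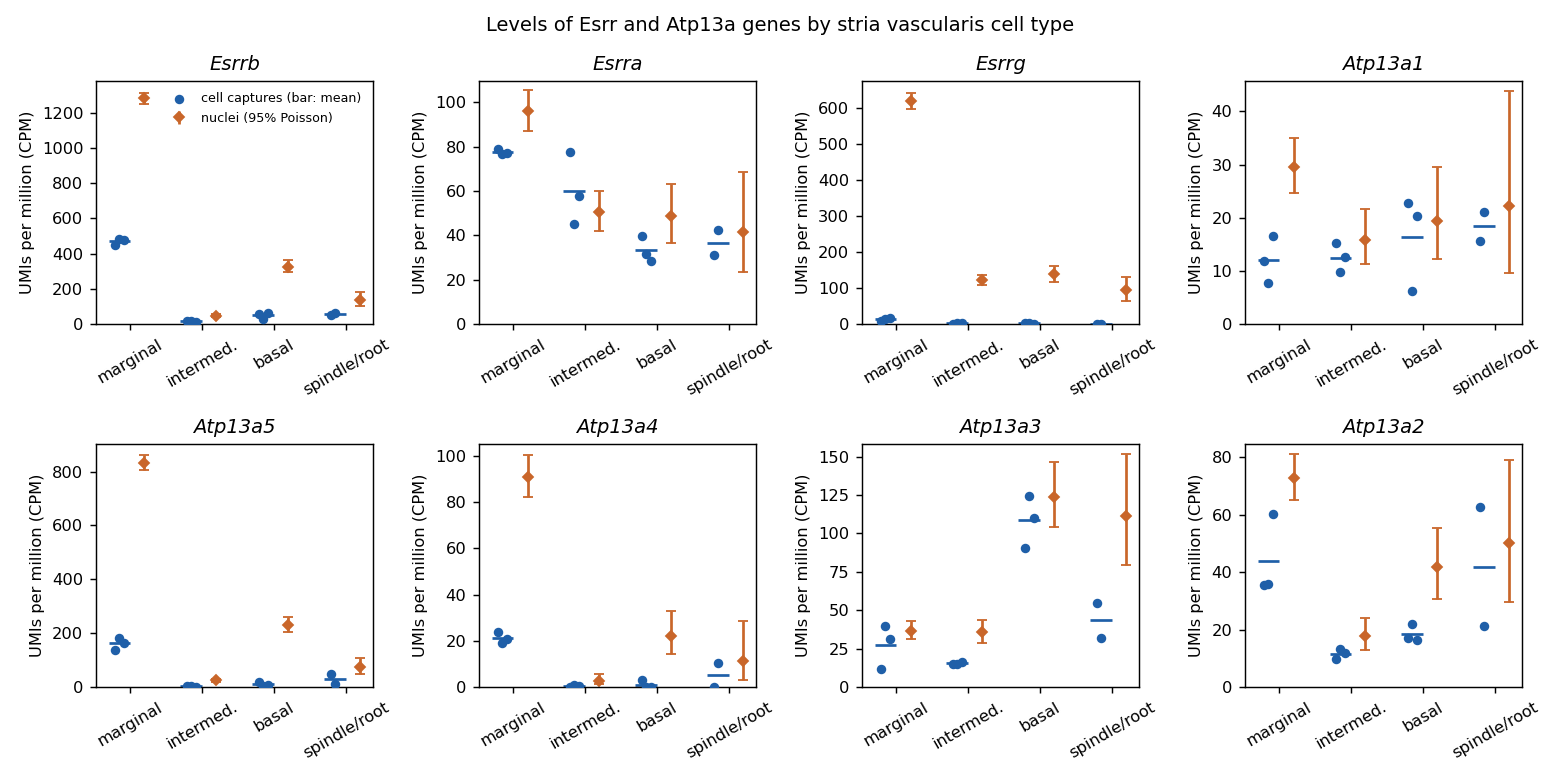
Level of each of the 8 genes (CPM, linear axes from 0) in marginal, intermediate, basal and spindle/root clusters, with a point for each cell capture, a short line at the mean of the captures, and a diamond with its exact 95% Poisson interval for the nuclei. Esrrb and Atp13a5 stand highest in marginal cells and Atp13a3 in basal cells, where its 3 captures lie between 90.8 and 124 CPM.

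Esrra, the family member most closely tied to mitochondrial genes, was spread over more types. Marginal cells had 79.0, 76.8 and 77.0 CPM (77.6 ± 1.23, SD, n = 3) and intermediate cells 77.7, 45.0 and 57.7 CPM (60.1 ± 16.5). Basal cells had 39.7, 31.4 and 28.6 CPM and spindle/root cells 31.4 and 42.2 CPM. Marginal and intermediate captures overlapped, and both stood above basal cells in every capture. Relative to the average of the other 3 types, Esrra rose in marginal cells by 0.85 on the log2 scale (SE 0.23, edgeR quasi-likelihood test with Benjamini-Hochberg adjustment, adjusted p = 0.00259) and in intermediate cells by 0.61 (SE 0.20, edgeR adjusted p = 0.0129). The intermediate call was lost with DESeq2 (DESeq2 adjusted p = 0.0801), without capture 1 or 3 (edgeR adjusted p = 0.0704 and 0.0936), and with no scaling beyond the total, where the log2 difference was 0.27 (edgeR adjusted p = 0.319) and the median of all genes was -0.32. Without capture 2 the marginal call was lost (edgeR adjusted p = 0.130).

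Between pairs of types, Esrra in marginal cells did not pass the test against intermediate cells, with a log2 difference of 0.18 (SE 0.18, edgeR adjusted p = 0.458), and was higher than in basal cells by 1.21 (SE 0.26, edgeR adjusted p = 0.000146). Intermediate cells were above basal cells by 1.03 (SE 0.24, edgeR adjusted p = 0.000317). In nuclei Esrra was at 95.9 CPM in marginal nuclei (87.0 to 106), with 50.4, 48.7 and 41.7 CPM in intermediate, basal and spindle/root nuclei. In each cell capture the intermediate level lay between the marginal and the basal one. It was close to the marginal level in capture 1 (77.7 against 79.0 CPM). In capture 2 it was at 45.0 CPM, against 76.8 CPM in marginal and 31.4 CPM in basal cells. In nuclei it lay near the basal level, and the difference between the 2 assays was not tested.

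Esrrg, the third receptor, was highest in marginal barcodes of both assays. Marginal cells had 2, 12 and 8 UMIs of Esrrg, or 7.90, 15.4 and 16.6 CPM (13.3 ± 4.72, SD, n = 3), and no other type passed 3.14 CPM in any capture. It fell under the filter on low counts, since no sum reached 20.8 CPM, and so was not tested with the other 7 genes. Marginal nuclei had 619 CPM (596 to 643), with an Esrrg UMI in 58.1% of nuclei against 4.30% of erythroid nuclei. Intermediate nuclei had 122 CPM (109 to 137), basal nuclei 138 CPM (117 to 162) and spindle/root nuclei 94.6 CPM (65.5 to 132). The marginal level was 4.43, 4.90 and 7.26 times the intermediate one in cells, from few UMIs, and 5.07 times in nuclei from many more UMIs. The cell and nucleus libraries used different gene lists, and whether intron reads were counted is not given in the sources used here, so levels are not compared across the assays.

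The ERR gene with the largest share differed between the 2 assays in intermediate barcodes and was Esrrb in marginal barcodes of both. These are 3′ counts, which cannot tell transcript isoforms of 1 gene apart, so the choice described is that between family members, as a share of the family's UMIs and not divided by length. In marginal cells, pooled over captures, Esrrb held 83.8% of 859 ERR UMIs, Esrra 13.6% and Esrrg 2.56%. In intermediate cells Esrra held 74.3% of 494 UMIs (70.2% to 78.1%) and Esrrb 22.3%. By capture, Esrra held 77.7%, 65.5% and 81.6% there, a spread wider than that interval. Basal cells had only 100 ERR UMIs, of which Esrrb held 56.0% (45.7% to 65.9%) and Esrra 41.0% (31.3% to 51.3%), with overlapping intervals. Spindle/root cells had 38, of which Esrrb held 71.1% (54.1% to 84.6%), and 14 of its 27 UMIs came from the 4 cells of capture 1, while it had 7 of 11 ERR UMIs in capture 2 and 6 of 10 in capture 3. In basal cells of capture 2 both genes had 20 of 42 UMIs, so no lead of either was established in basal cells, while Esrra led in the intermediate cells.

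In marginal nuclei Esrrb held 64.2% of 8803 ERR UMIs (63.2% to 65.2%), Esrrg 31.0% and Esrra 4.81%. Intermediate nuclei differed from intermediate cells, with Esrrg at 55.2% of 558 UMIs (51.0% to 59.4%) and Esrra at 22.8%. The larger cluster of intermediate nuclei (1307 nuclei) had 269 UMIs of Esrrg, 90 of Esrra and 93 of Esrrb. The smaller cluster (176 nuclei) had 39, 37 and 30 UMIs of the same genes, so no lead was established there. Basal nuclei had Esrrb at 63.6% of 580 UMIs and Esrrg at 26.9%. Spindle/root nuclei had Esrrb at 50.5% of 99 UMIs (40.3% to 60.7%) and Esrrg at 34.3% (25.1% to 44.6%), with overlapping intervals. The first place passed from Esrra in intermediate cells to Esrrg in the larger cluster of intermediate nuclei, but not clearly in the smaller one. Esrrb held the first place in marginal barcodes of both assays and in basal nuclei. The different gene lists and the open question of intron reads apply to these shares too. Their difference between the assays was not tested.

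**Figure D2:**
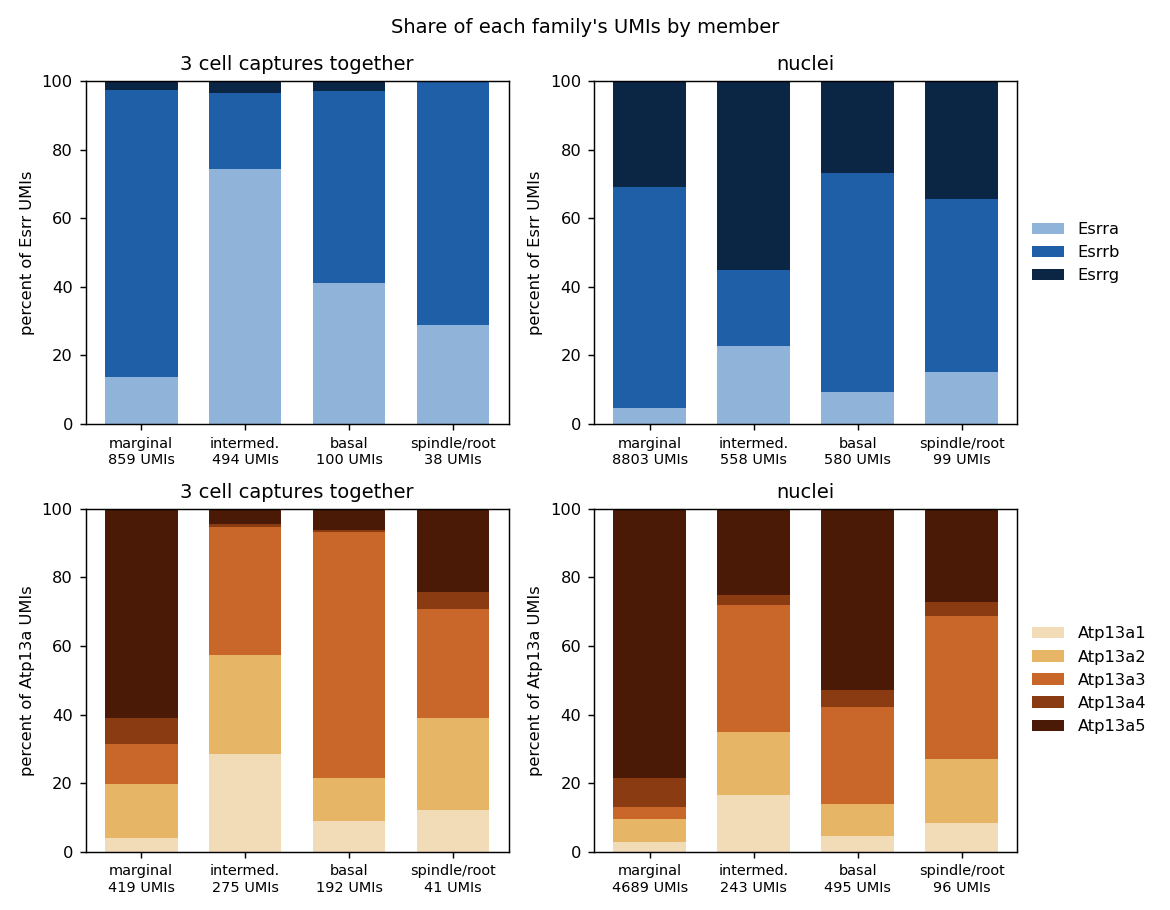
Share of each family's UMIs (percent, 0 to 100) held by each member in the 4 cell types, for cells pooled over captures and for nuclei, with the family's total UMIs under each bar. Esrrb fills 83.8% of the ERR bar in marginal cells and Esrrg 31.0% in marginal nuclei, and Atp13a3 fills 71.9% of the Atp13a bar in basal cells.

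The partners of the ERRs were measured in the same fit. Of 11 ERR cofactors listed, 8 passed the filter, 2 were higher in marginal cells and 0 lower, with a median log2 difference of 0.40 beside 0.06 over all 7490 genes tested. At an unadjusted p under 0.05 the counts were 3 and 0, and DESeq2 called 1 and 0. Ppargc1a, the coactivator of mitochondrial biogenesis, was at 185 ± 49.7 CPM in marginal cells (SD, n = 3), 146 ± 19.2 in intermediate, 70.9 ± 4.86 in basal and 51.1 ± 27.5 CPM in spindle/root cells. It was higher in marginal cells by 1.00 on the log2 scale (SE 0.19, edgeR adjusted p = 1.61e-05). Across all genes, 15.8% were called higher and 9.48% lower in marginal cells.

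Most of the listed metabolic genes known as ERR targets were called higher in marginal cells than the average of the other 3 types. This list, like the others, was chosen with earlier results of these data known, so its count is a description. A call against the average does not place a gene above each other type, and ERR activity was not tested. Of 24 listed, 19 passed the filter, 15 were higher and 0 were lower, with a median log2 difference of 0.78, where 15.8% of all genes were called higher. The list holds Esrra itself, and without it 14 of 18 were higher with a median of 0.76. At an unadjusted p under 0.05, 16 were higher and 0 lower, and DESeq2 called 12 and 0. Idh3a, a subunit of mitochondrial isocitrate dehydrogenase, was at 103 ± 4.83 CPM in marginal cells against 62.8 ± 5.64, 30.9 ± 4.76 and 31.5 ± 0.225 CPM in intermediate, basal and spindle/root cells, a log2 difference of 1.30 (SE 0.21, edgeR adjusted p = 1.05e-06). Got1, a transaminase of the malate-aspartate shuttle, was higher by 1.25 (SE 0.18, edgeR adjusted p = 2.02e-08). Acadm, which oxidises medium-chain fatty acids, was at 129 ± 27.2 CPM in marginal cells and at 41.8 ± 3.26, 74.5 ± 10.8 and 47.2 ± 22.0 CPM in the other types (edgeR adjusted p = 4.78e-07). The muscle genes of the list, Cpt1b, Cox6a2 and Ckmt2, were at 0 in all sums. Mitochondrial reads, which differed between types, were 25.0% to 28.1% of UMIs in marginal cells, 32.6% to 37.6% in intermediate 24.0% to 30.2% in basal and 12.7% to 13.8% in spindle/root cells, and their part in the result was not tested.

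**Figure D3:**
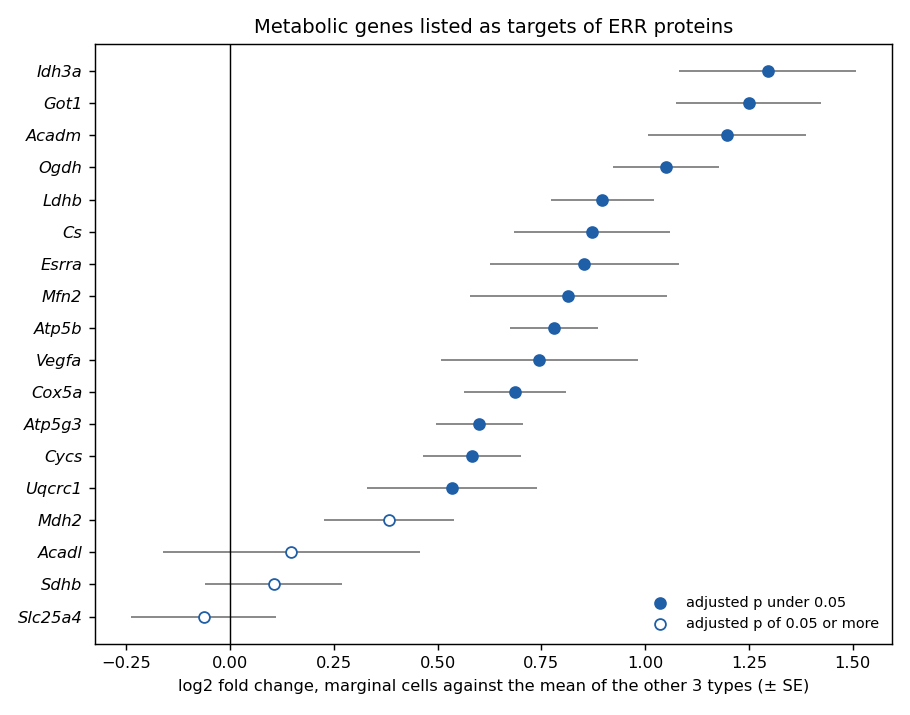
Log2 fold change of the tested metabolic genes, all but 1 of which are drawn, for marginal cells relative to the average over intermediate, basal and spindle/root cells, with bars of ± 1 SE from the edgeR fit and filled points for adjusted p under 0.05. The points lie between -0.06 and 1.30, and every filled point lies to the right of 0.

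The sex steroid receptors were near 0, while the receptors of corticosteroids were present. Of 7 listed, only Nr3c1 and Nr3c2, the glucocorticoid and mineralocorticoid receptors, passed the filter, and edgeR called 0 higher and 0 lower in marginal cells. The counts at an unadjusted p under 0.05 were 0 and 0, and DESeq2 called 0 higher and 0 lower. The level of Nr3c1 was 60.7 ± 5.64 CPM in marginal and 111 ± 9.45 CPM in basal cells (SD, n = 3 each), and its marginal difference of -0.12 did not pass the test (SE 0.26, edgeR adjusted p = 0.794). Nr3c2 was at 13.0 ± 4.57 CPM in marginal and 49.7 ± 9.22 CPM in basal cells, and its fitted difference of 1.75 (SE 1.21, edgeR adjusted p = 0.323) rests on spindle/root sums at 0. The median over these 2 genes, 0.81, therefore describes no marginal excess. The estrogen receptor genes Esr1 and Esr2 did not pass 1.89 CPM as a mean in any type.

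Atp13a5 was the leading Atp13a transcript of marginal cells. Its level there was 138, 182 and 164 CPM in the 3 captures (161 ± 21.9, SD, n = 3). Intermediate cells had 1.79, 2.09 and 1.53 CPM, basal cells 19.9, 4.72 and 8.17 CPM and spindle/root cells 47.0 and 10.6 CPM, the last from 6 UMIs and 1 UMI. All marginal sums lay above all others. In marginal nuclei it was at 833 CPM (807 to 861), against 24.2 CPM in intermediate, 231 CPM in basal and 72.3 CPM in spindle/root nuclei. An Atp13a5 UMI was seen in 73.7%, 80.3% and 84.4% of marginal cells and 70.0% of marginal nuclei, and in 0%, 2.33% and 4.92% of erythroid cells of captures 2 and 3 and erythroid nuclei.

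Atp13a4, its neighbour on chromosome 16, was lower and, outside marginal cells, near 0 in cells. Marginal cells had 23.7, 19.2 and 20.8 CPM (21.2 ± 2.28, SD, n = 3) from 6, 15 and 10 UMIs. Intermediate cells had 0, 2 and 1 UMIs, basal cells 1, 0 and 0 UMIs, and spindle/root cells 0 and 1. The fitted log2 difference was 3.83 (SE 0.66, edgeR adjusted p = 2.89e-06), but Atp13a4 passed the filter only on its marginal sums, so a difference was bound to appear and its size depends on sums near 0. In nuclei, with more UMIs, marginal nuclei had 90.9 CPM (82.2 to 100) and intermediate nuclei 2.78 CPM (1.12 to 5.72).

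Atp13a2, the lysosomal polyamine exporter, was also higher in marginal cells, with a wider spread. Marginal cells had 35.6, 35.9 and 60.3 CPM (43.9 ± 14.2, SD, n = 3), intermediate cells 9.82, 13.2 and 11.8 CPM, basal cells 17.0, 22.0 and 16.3 CPM, and spindle/root cells 62.7 and 21.1 CPM. Marginal sums stood above intermediate and basal ones without overlap and overlapped with spindle/root cells. Relative to the average of the other types, Atp13a2 rose by 0.94 (SE 0.28, edgeR adjusted p = 0.00845), a call that was lost without capture 3, at 0.46 (edgeR adjusted p = 0.438). Marginal cells were above intermediate cells by 1.56 (SE 0.28, edgeR adjusted p = 4.19e-06) and above basal cells by 1.09 (SE 0.36, edgeR adjusted p = 0.0159), while the difference from spindle/root cells was 0.18 (SE 0.52, edgeR adjusted p = 0.861). In nuclei the values were 72.8 CPM in marginal, 17.8 CPM in intermediate, 41.6 CPM in basal and 50.1 CPM in spindle/root nuclei.

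Atp13a3 followed a different order and was highest in basal cells. Basal cells had 90.8, 124 and 110 CPM (108 ± 16.7, SD, n = 3), and an Atp13a3 UMI was seen in 71.4%, 81.2% and 65.2% of them. Thinned to 1000 UMIs, these shares were 4.76%, 12.5% and 13.0%, from 1, 6 and 3 cells. Marginal cells then had 0%, 4.23% and 4.44%, and intermediate cells 1.50%, 0.901% and 2.18%. Marginal cells had 11.9, 39.7 and 31.2 CPM, intermediate cells 15.2, 14.6 and 16.4 CPM and spindle/root cells 54.9 and 31.7 CPM. Basal sums lay above all others, and marginal sums overlapped with both intermediate and spindle/root ones. Relative to the average of the other types, Atp13a3 rose in basal cells by 2.02 on the log2 scale (SE 0.22, edgeR adjusted p = 5.10e-12). Set against basal cells, the log2 difference was -1.87 in marginal cells (SE 0.25, edgeR adjusted p = 3.07e-09) and -2.61 in intermediate cells (SE 0.22, edgeR adjusted p = 7.79e-17). Marginal cells were above intermediate cells by 0.74 (SE 0.28, edgeR adjusted p = 0.0280), although their sums overlapped. Basal cells were above spindle/root cells by 1.59 (SE 0.43, edgeR adjusted p = 0.00357).

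In nuclei the basal level of Atp13a3 was 124 CPM (104 to 146), 3.38 times the marginal and 3.47 times the intermediate level. Spindle/root nuclei had 111 CPM (79.5 to 151), so the basal lead over spindle/root cells, 2.26 and 3.48 times in the cell captures, was 1.11 times in nuclei, with overlapping intervals. For Atp13a1, the pump of the endoplasmic reticulum, no difference between types was established in cells. It was at 11.9, 7.68 and 16.6 CPM in marginal cells, 15.2, 9.76 and 12.6 CPM in intermediate, 22.7, 6.29 and 20.4 CPM in basal and 15.7 and 21.1 CPM in spindle/root cells. The marginal, intermediate and basal sums overlapped. The spindle/root sums lay above the intermediate ones, but from only 2 UMIs each, too few to establish an order. Its log2 difference in marginal cells was -0.41 (SE 0.48, edgeR adjusted p = 0.602), from marginal sums of 3, 6 and 8 UMIs. In nuclei Atp13a1 was at 29.5 CPM in marginal (130 UMIs) and 15.9 CPM in intermediate nuclei (40 UMIs). Basal and spindle/root nuclei had 19.5 and 22.3 CPM, and these differences were not tested.

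As shares of the family, Atp13a5 held 61.1% of 419 Atp13a UMIs in marginal cells (56.2% to 65.8%) and 78.4% of 4689 in marginal nuclei. Atp13a3 held 71.9% of 192 UMIs in basal cells (64.9% to 78.1%), and 59.3%, 79.0% and 71.1% in the single captures. In basal nuclei Atp13a5 was ahead with 52.7% of 495 UMIs (48.2% to 57.2%), and Atp13a3 held 28.3%. Intermediate cells had no dominant member, with Atp13a3 at 37.1%, Atp13a2 at 29.1% and Atp13a1 at 28.4% of 275 UMIs.

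Marginal transcripts as a group were present in basal nuclei. Basal nuclei held 27.7% of the marginal level of Atp13a5, 24.4% of Atp13a4, 25.5% of Esrrb and 22.3% of Esrrg. The marginal markers there were at 36.8% for Kcne1, 29.7% for Kcnq1, 28.8% for Bsnd and 25.1% for Lrp2 of their own marginal levels. In basal cells the shares were 6.76% for Atp13a5 and 10.9% for Esrrb, beside 9.71% for Kcne1 and 5.78% for Lrp2. The 8 marginal markers summed to 4768 CPM in basal nuclei and 790 CPM in erythroid nuclei, and their part in the result was not tested. Esrrg in intermediate nuclei stood apart from Esrrb and Atp13a5 there, at 19.7% of its marginal level against 3.81% and 2.90%, with Kcne1 at 22.4% and Kcnq1 at 6.05%.

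Counted over the fit, 7 of the 8 genes were tested. In marginal cells edgeR called 5 of them higher and 0 lower, where 15.8% of all genes were called higher. Of these 5, Esrrb and Atp13a5 had been chosen by the study as marginal genes and Atp13a4 passed the filter only through marginal sums, so their calls were fixed by those choices, which leaves Esrra and Atp13a2, and the count is not read against the share of all genes. In intermediate cells edgeR called 1 higher (Esrra) and 4 lower (Atp13a2 and Atp13a3, and Esrrb and Atp13a5, for which the marginal cells were among those compared with), beside 17.1% of all genes higher and 16.8% lower. DESeq2 called 0 higher and 5 lower there, with Esrra no longer called (DESeq2 adjusted p = 0.0801) and Atp13a4 called lower (DESeq2 adjusted p = 0.0337). Atp13a4 passed the filter only on marginal sums, which are among those compared with, so nothing is read from its call. Atp13a3 fell by 1.46 on the log2 scale (SE 0.27, edgeR adjusted p = 5.80e-06) and Atp13a2 fell by 1.14 (SE 0.29, edgeR adjusted p = 0.00105), calls that were lost without capture 2, with edgeR adjusted p-values of 0.0533 and 0.252. In basal cells Atp13a3 was higher, beside 14.4% of all genes, and the fit called Esrrb lower, with the marginal cells again among those compared with, beside 9.45%. In spindle/root cells edgeR called 0 of 7, beside 11.8% of all genes higher and 8.13% lower, with 0 at an unadjusted p under 0.05 and 0 by DESeq2.

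Between pairs of types the same 7 genes were tested. In the 3 pairs with marginal cells, the calls of Esrrb, Atp13a5 and Atp13a4 were fixed by how these genes were chosen or passed the filter, and they are left out of the counts here, so 4 genes remain. Of these 4, Atp13a2 and Atp13a3 were higher in marginal than in intermediate cells, where 35.1% of all genes were called in either direction. Esrra and Atp13a2 were higher and Atp13a3 was lower in marginal than in basal cells, where 28.9% were called. Between marginal and spindle/root cells edgeR called 0 of the 4, with 1 (Esrra) at an unadjusted p under 0.05 and 0 by DESeq2, where 9.36% of all genes were higher and 9.83% lower. Intermediate cells had 1 gene higher (Esrra) and 3 lower (Esrrb, Atp13a3 and Atp13a5) than basal cells, beside 31.7% in either direction, and 2 lower (Esrrb and Atp13a5) than spindle/root cells, beside 26.4%. In intermediate, basal and spindle/root cells Esrrb was at 3.67%, 10.9% and 12.6% of its marginal level, and Atp13a5 at 1.12%, 6.76% and 17.8%. The marginal markers Kcne1 (4.77%, 9.71% and 15.8%) and Lrp2 (1.52%, 5.78% and 26.6%) stood in the same order. The part of marginal RNA in the calls of Esrrb and Atp13a5 was not tested. Basal and spindle/root cells differed in Atp13a3 among the 7, beside 22.2%.

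Fewer listed genes of polyamine metabolism were called higher than lower in marginal cells against the average of the other types. A lower call against that average does not place a gene below each other type. Of 18 listed, 14 passed the filter, 1 was higher in marginal cells and 5 were lower, with a median log2 difference of -0.29, where 15.8% of all genes were higher and 9.48% lower. At an unadjusted p under 0.05, 2 were higher and 6 lower, and DESeq2 called 0 higher and 4 lower. Azin2, an antizyme inhibitor, was higher by 1.57 (SE 0.60, edgeR adjusted p = 0.0440), a call that DESeq2 did not make. Its level was 17.0 ± 9.35 CPM in marginal and 18.4 ± 3.85 CPM in spindle/root cells, so it did not stand above the latter. Sms, spermine synthase, fell by 1.08 (SE 0.26, edgeR adjusted p = 0.000621), Odc1, ornithine decarboxylase, fell by 0.78 (SE 0.17, edgeR adjusted p = 0.000152), and Amd1, which makes the aminopropyl donor, fell by 0.63 (SE 0.16, edgeR adjusted p = 0.00117). Both Sms and Odc1 were highest in spindle/root cells. Odc1 was at 78.0 ± 13.5 CPM in marginal, 62.2 ± 11.2 in intermediate, 62.7 ± 8.31 in basal and 490 ± 94.9 CPM in spindle/root cells, and only the last stood apart. Sms was at 29.3 ± 5.49, 15.3 ± 3.01, 31.8 ± 13.4 and 309 ± 184 CPM in the same types. The falls of Sms and Odc1 therefore rest on the spindle/root sums, and neither was lower in marginal than in intermediate cells. Of 14 lysosome and endosome genes listed beside Atp13a2, 13 passed the filter, 2 were higher and 0 lower, a share near the 15.8% of all genes, with a median of 0.04, 2 and 0 at an unadjusted p under 0.05, and 1 and 0 by DESeq2. These were Syt11, a vesicle protein, by 1.64 (SE 0.25, edgeR adjusted p = 2.43e-07), and Ctsd, a lysosomal protease, by 0.37 (SE 0.11, edgeR adjusted p = 0.00923). Syt11 was at 58.8 ± 20.7 CPM in marginal and 48.6 ± 8.94 CPM in spindle/root cells. Ctsd was at 534 ± 92.8 CPM in marginal and 537 ± 81.2 CPM in intermediate cells, so it was not above the latter.

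A further class of nuclei carried Atp13a5. The Reissner membrane-like cluster, 100 nuclei named from Vmo1, Slc26a7 and Otx2, had Atp13a5 at 814 CPM (674 to 974), beside 833 CPM in marginal nuclei. An Atp13a5 UMI was seen in 64.0% of these nuclei. Esrrb there was at 185 CPM (122 to 269), or 14.4% of the marginal level, against 97.7% for Atp13a5 and 67.7% for Atp13a4. The marginal markers Kcnq1, Kcne1 and Bsnd were at 22.0%, 32.6% and 9.28% of their marginal levels, and Lrp2 at 52.6%. Of the Atp13a UMIs, 86.9% were Atp13a5. Erythroid nuclei, at a median of 5268.5 UMIs against 1248.5 in the Reissner membrane-like nuclei, had Atp13a5 in 4.92%. With doublets kept, the cluster held 153 nuclei and Atp13a5 was at 669 CPM (572 to 778).

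**Figure D4:**
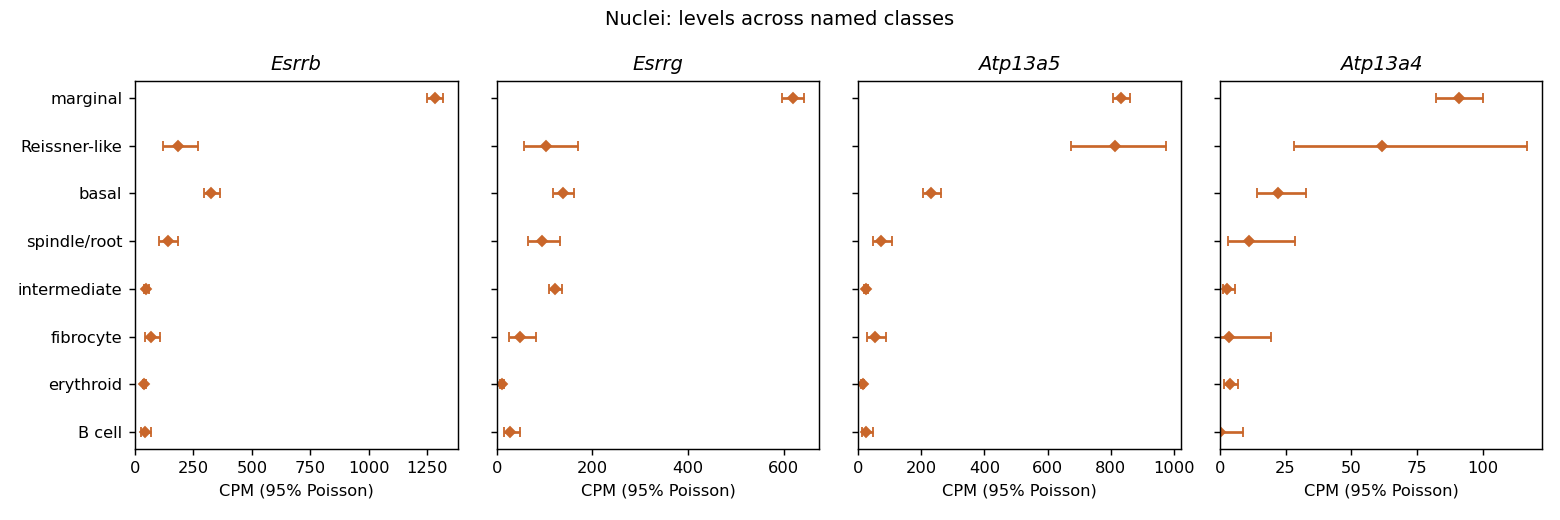
Level of Esrrb, Esrrg, Atp13a5 and Atp13a4 in 8 named classes of nuclei (CPM, linear axes from 0), with exact 95% Poisson intervals as bars. Atp13a5 is at 814 CPM in Reissner membrane-like nuclei and 833 CPM in marginal nuclei, while Esrrb is at 185 and 1281 CPM in the same classes.

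The correlation of Esrrb with Atp13a5 was taken over barcodes with at least 1 UMI of Lrp2, the endocytic receptor megalin, and 1 of Kcnq1, the potassium channel subunit of the marginal apical membrane. This rule chose 44, 144 and 110 cells and 3309 nuclei. Pearson r of the log-scaled UMIs per 10000 was 0.417, 0.494 and 0.390 in the cell captures and 0.272 in nuclei, a description over barcodes that share a library and differ in depth. The barcodes were not all marginal by their cluster. The marginal clusters held 43.2%, 45.8% and 39.1% of the cells and 71.3% of the nuclei chosen, and clusters with no name held 36.4%, 43.1%, 51.8% and 13.7%.

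Within the marginal clusters themselves, r was 0.335 (n = 19), 0.376 (n = 71), 0.0378 (n = 45) and, over 2600 nuclei, 0.0364. With at least 2 UMIs of each chosen gene it was 0.188, 0.488, 0.136 and 0.0578. Only capture 2 kept an r near its first value under that rule, and in nuclei r came near 0 under both. Thinned to equal depth, r was 0.330, 0.134, -0.0451 and 0.0969, and holding the log total UMIs constant left it at 0.395, 0.490, 0.389 and 0.269. Thinning also removes counts of both genes, so the thinned values do not separate depth from counting noise. What part depth and barcodes outside the marginal clusters had in the larger values was not tested further.

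**Figure D5:**
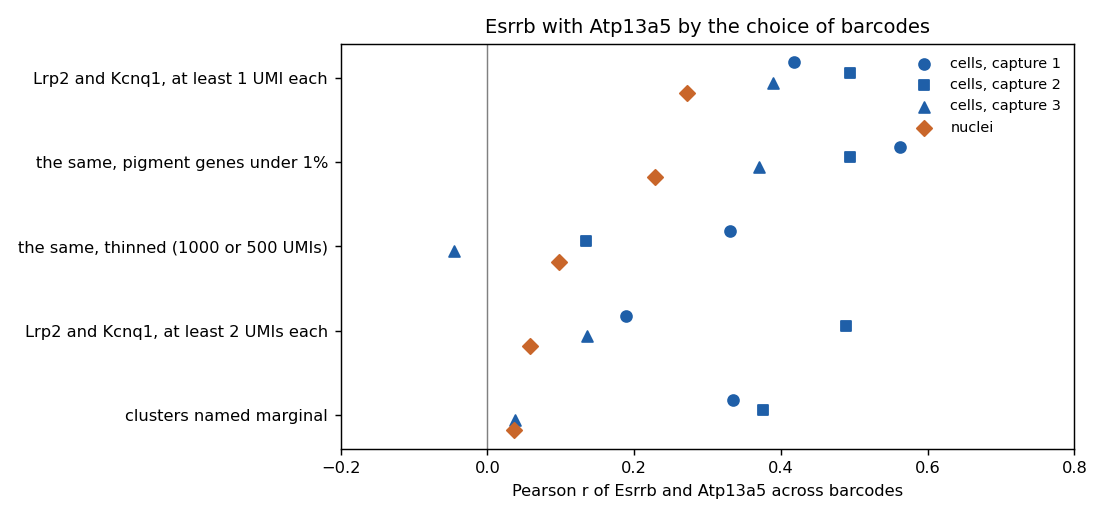
Pearson r of Esrrb with Atp13a5 (horizontal axis) for 5 choices of barcodes or of depth, with a symbol for each of the 3 cell captures and for the nuclei. The points lie at 0.272 to 0.494 for barcodes with Lrp2 and Kcnq1, and at 0.0364 to 0.376 within marginal clusters.

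Seen as detection, Atp13a5 had a UMI in 51.5%, 57.1% and 62.3% of the chosen cells with Esrrb and in 9.09%, 18.8% and 12.1% of those without it. In nuclei the shares were 67.4% and 39.1%. Barcodes with Atp13a5 were deeper, with a median of 14882, 11506, 10948 and 1520 UMIs against 12771, 8457, 7395.5 and 1468 UMIs. After thinning, the shares were 25.0% against 6.25%, 17.9% against 5.71% and 7.69% against 9.52% in cells, and 32.8% against 23.8% in nuclei. They were shares of 12 and 32, 39 and 105, and 26 and 84 cells with and without Esrrb, and of 1135 and 2174 nuclei. The order held in captures 1 and 2 and in nuclei and turned in capture 3, but in the cell captures it rests on few barcodes. These shares depend on the UMIs of each barcode. They are a different measure from the study's in situ counts on tissue sections.

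The 2 genes that chose the barcodes are no independent yardstick for these values, and their own correlations are given as a description. Esrrb gave 0.571, 0.591, 0.604 and 0.348 with Lrp2 and 0.333, 0.365, 0.367 and 0.312 with Kcnq1, so that its r with Atp13a5 lay between the 2 in cells and below both in nuclei. Among genes seen in at least 20% of the chosen barcodes, Atp13a5 ranked 145 of 5929, 21 of 4649, 127 of 4472 and 28 of 978 by its r with Esrrb. Esrrb with Atp13a3, the basal member, gave -0.197, -0.0288, 0.125 and -0.00965. Esrrb with Esrrg in nuclei gave 0.240, close to the 0.272 of Esrrb with Atp13a5. The other genes named by the study in the Esrrb group, Abcg1 and Heyl, gave 0.317, 0.468, 0.474 and 0.104, and 0.379, 0.306, 0.356 and 0.0581.

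Marginal and spindle/root cells had 153 ± 33.8 CPM (SD, n = 3) and 59.1 ± 5.99 CPM (n = 2) of Abcg1, a lipid exporter. For Heyl, a transcriptional repressor of the Notch pathway, the levels were 116 ± 19.4 and 36.6 ± 36.9 CPM. Both were called higher in marginal cells, with a median log2 difference of 3.64, but the study chose them on these samples, so this is not independent evidence of their direction. In spindle/root cells Heyl was at 62.7 CPM in capture 2 and 10.6 CPM in capture 3, the latter from 1 UMI.

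Over the 11 sums of 4 types and 3 captures, and among 4728 genes with at least 20 CPM in every marginal sum, the genes most like Esrrb by Pearson r of log2(CPM + 1) were Abca2 (0.988), Kcne1 (0.985), Tfcp2l1 (0.978), Atp2b1 (0.977) and Glrx5 (0.975). Those most like Atp13a5 were Itgb5 (0.995), Pcsk6 (0.990), Casp6 (0.983), Ank3 (0.982) and Fam234b (0.982). Esrrb and Atp13a5 had an r of 0.952 over the same sums. The marginal and intermediate levels of Tfcp2l1, a transcription factor, were 37.6 ± 7.32 and 2.52 ± 0.873 CPM, and those of Pcsk6, a proprotein convertase, were 501 ± 40.7 and 6.95 ± 2.58 CPM (SD, n = 3). The sums share captures and fall into 4 types, so these values rank likeness of pattern and carry no test.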

How the data were processed

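Stria vascularis from P30 CBA/J mice was measured by scRNA-Seq in 3 captures and by snRNA-Seq in 1 capture. The deposited values were raw UMI counts per gene and barcode, made by the authors with Cell Ranger 2.0.0 on mm10, as the submitters' processing notes give them. Whether intron reads were counted in nuclei is not given in the sources used here. No deposited cell annotation was used.

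Barcodes with under 200 genes were removed, as were predicted doublets (scanpy 1.11.5, at a rate of 0.8% per 1000 barcodes). Cells and nuclei were clustered apart in Seurat 5.3.0 (R 4.3.3) at resolution 0.8 on 2000 variable genes, without the 8 genes, Abcg1 and Heyl. The genes of the other lists were not held out and could take part in the clustering. A cluster could take the name of 1 of 17 classes, marked by 104 genes in all. At least 3 markers of the class had to be raised 2-fold or more and seen in at least 10% of its barcodes. Their mean log2 difference had to be positive, and that of a rival class with at least 2 raised markers under 0.67 of it. No other class could have more markers among the 10 most raised genes. Shallow clusters needed a marker among these genes, and clusters with raised markers of several classes were first split. The form of this rule was changed once clusters were known. The members and gene lists were chosen with earlier results of these data known. The text names the 8 members, up to 4 genes of each list with the largest called change, and the 5 genes most like Esrrb and Atp13a5. Some listed genes that this rule would name are not reported here.

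Counts were summed per capture and type where at least 5 cells were present, giving 11 sums. They were tested with the edgeR 4.0.16 quasi-likelihood test with TMM scaling, edgeR's filter on low counts, all 4 types in 1 fit and capture as a block, with Benjamini-Hochberg adjustment over 7490 genes and a threshold of 0.05. DESeq2 1.42.0 was an alternative. The edgeR and DESeq2 fits were tested on simulated sums with known changes in marginal cells and a common spread for all genes. That test did not cover the clustering, naming, shares or correlations. Types of 1 capture came from the same suspension, which is where the pairing comes from, and over 4847 genes the deviations of 15 same-capture pairs had correlations of -0.0477 to 0.251. Each capture was a pool of mice, and with capture as a block, differences between pools common to all types are removed. The p-values therefore weigh the differences between types against their spread from pool to pool, which includes counting and cell sampling error. That spread was estimated with information shared across genes, not from each gene alone. The nuclei are 1 library and were not tested. Other settings tried were scaling, filters, doublets, resolution, mitochondrial genes, thinning and leaving out each capture.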

Additional observations from a re-analysis of the deposited data

Results flagged for a closer look

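Atp13a1 in marginal barcodes lay below the mean of the other types in all 3 cell captures, by -7.09, -2.89 and -1.41 CPM, and above it in nuclei, by 10.3 CPM. The marginal levels in cells came from only 3, 6 and 8 UMIs, and the spindle/root sums in that mean from 2 UMIs each. The difference between cells and nuclei was not tested. Atp13a3 in spindle/root barcodes lay below the mean of the other types in both cell captures that could be summed, by -4.62 and -21.0 CPM, and above it in nuclei, by 45.8 CPM, which was likewise not tested. Atp13a5 was at 814 CPM in the Reissner membrane-like nuclei, a class outside the 4 types compared, while erythroid nuclei had 14.1 CPM.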

How the results depend on the processing

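The 12 calls on single members gave 167 pairs of a call and an alternative setting, leaving out pairs where the gene was not tested. Of these pairs, 155 kept the call, 12 lost it and 0 changed direction. The calls include those of Esrrb, Atp13a5 and Atp13a4 that were fixed by how these genes were chosen or passed the filter. Asking for at least 10 cells per sum left the 11 sums as they were, so that setting could change nothing. The number of members called in marginal cells was 5 and ranged from 3 to 5 when each capture was left out, and the lowest was without capture 2. In intermediate cells it was 5 and ranged from 3 to 4. In basal cells it was 2 and became 1 with DESeq2, 1 at resolution 1.2 and 4 with doublets kept, and ranged from 1 to 3 without each capture. In spindle/root cells it was 0 and became 1 with doublets kept. These counts include Esrrb and Atp13a5, and in marginal cells Atp13a4, and the cause of the changes in count was not tested. The share of all genes called under each setting is not given beside them, so they are not read against it. The fit with no replicate block gave 5, 5, 2 and 0 members in marginal, intermediate, basal and spindle/root cells, as the fit with the block did, so the pairing by capture changed no count. No paired analysis was possible because of separate tissue preparations for the comparison of nuclei with cells.

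The correlation of Esrrb with Atp13a5 moved most. Spearman's rho was 0.476 in capture 3. With at least 2 UMIs of Lrp2 and Kcnq1, r was 0.188 in capture 1, 0.136 in capture 3 and 0.0578 in nuclei. In marginal clusters it was 0.335, 0.376, 0.0378 and 0.0364, and without barcodes rich in pigment genes it was 0.562 in capture 1. Thinned, it was 0.330, 0.134, -0.0451 and 0.0969, a change of sign in capture 3. That was a single random draw of 1000 UMIs per cell, from a median of 9253 in capture 3, which leaves few counts of either gene. With the log total UMIs held constant, r in capture 3 was 0.389. The low UMI counts of Esrrg and Atp13a4 in cells, at most 15 per marginal sum, limit what these captures can show of them.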
